A study of Mus musculus with 16 samples.

Results

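The JAK-STAT pathway and its feedback inhibitors were followed through 10 genes of cultured mouse hepatic progenitor cells. These genes were chosen by their symbols, with earlier results of these data known. They are the kinase genes Jak1, Jak2 and Tyk2, the transcription factor genes Stat3 and Stat5b, the receptor gene Il6st, and the inhibitor genes Socs1, Socs2, Socs3 and Cish, which are 10 of the 55421 genes in the deposited table. The cells, also known as oval cells, carried Ptpn1 on both alleles (Ptpn1+/+, WT) or on neither (Ptpn1-/-, KO), and each genotype was sequenced as a control and after 400 µM palmitic acid, a saturated fatty acid, for 8 h. Each of these 4 groups had 4 libraries of RNA depleted of ribosomal RNA, with 21553952 to 35693442 gene reads per library. Levels are given as normalized counts, the gene's reads divided by a scaling factor of the library, and differences as log2 fold changes of the level plus 1. The strain, sex and age of the mice are not stated in the labels, and neither is the number of cell lines behind each genotype, so a genotype difference and a difference between cell lines cannot be told apart. The labels give a medium with less serum and with added albumin for palmitate and do not name the medium of the control libraries, so medium and palmitate cannot be told apart either. Nothing in the labels says that the 4 libraries of a group came from separate cultures, and p-values then measure the spread between libraries, which may be technical.

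Cytokine and hormone receptors that lack an enzyme of their own carry JAK kinases on their inner side. When the ligand binds, the JAKs phosphorylate the receptor and the STAT proteins that dock on it, and the STATs move to the nucleus and switch on genes. Among these genes are Cish and the Socs genes, whose proteins block the receptor or the JAKs and close a negative feedback loop. In liver, interleukin-6 signalling through gp130, JAK1 and STAT3 drives the acute phase response, and growth hormone signalling through JAK2 and STAT5B drives Igf1. Ptpn1 encodes the tyrosine phosphatase PTP1B, which removes phosphate from JAK2 and TYK2. The values below are RNA levels, and phosphorylation of the proteins was not measured.

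The genotype labels were checked on Ptpn1 itself, which stood in KO at 17% of its WT level in control and at 15.8% after palmitate (exact permutation p = 0.0286 for each, two-sided, the smallest value that 70 assignments can give). Markers of the labelled cell type and of its neighbours moved with the genotype. Progenitor and cholangiocyte markers summed to 152161 to 163867 normalized counts in WT control and to 300950 to 308416 in KO control, where 10 of 12 were called higher and 1 lower, and Epcam was under 10 in every library. Hepatocyte markers summed to 2867 to 3095 in WT control and 52990.2 to 56484 in KO control, with 6 of 9 called higher and Cps1 and Cyp2e1 under 10 throughout. Mesenchymal and stellate markers summed to 190459 to 205607 in WT control and 33022 to 34792 in KO control, with 8 of 9 called lower and Lrat at 0. Leukocyte markers summed to 667 to 692 in WT control and 744 to 803 in KO control, with 2 of 8 called higher, 5 under 10 throughout, and Adgre1 and Cd3e at 0 among those. Endothelial markers summed to 83.6 to 92.7 in WT control and 25.6 to 53.8 in KO control, with 1 of 6 called higher and 1 lower, and Pecam1, Kdr and Tek under 10 throughout. In bulk RNA, fewer cells of a type and less RNA per cell cannot be told apart, and the part of these markers in the genotype differences below was not tested.

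All 10 genes were detected, over a wide range of levels. Compared per kilobase of the principal transcript, Jak1 had the highest level in WT control, at 1013 normalized counts per kilobase, followed by Stat3 at 717 and Il6st at 715, whose libraries overlapped, and Jak2 at 582. The inhibitors Socs3 and Socs2 came next at 263 and 259 per kilobase and overlapped each other. Below them Stat5b (206), Cish (189) and Tyk2 (182 per kilobase) overlapped in turn, and Socs1 was lowest at 15.2. In KO control the order of the levels per kilobase was Jak1 at 980 (954 to 1002), Jak2 at 879 and Stat3 at 830.2, whose libraries overlapped each other, and then Il6st at 701. Stat5b (310) overlapped Socs2 (302 per kilobase), and Tyk2 (276), Socs3 (223), Cish (90.0) and Socs1 (1.76) followed without overlap. The order depends on the transcript taken as the length. Stat3, for example, ranked 4 rather than 2 in WT control when the length was that of all its exons. With that length Jak2 ranked 1 and Jak1 ranked 2 in KO control.

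**Figure D1:**
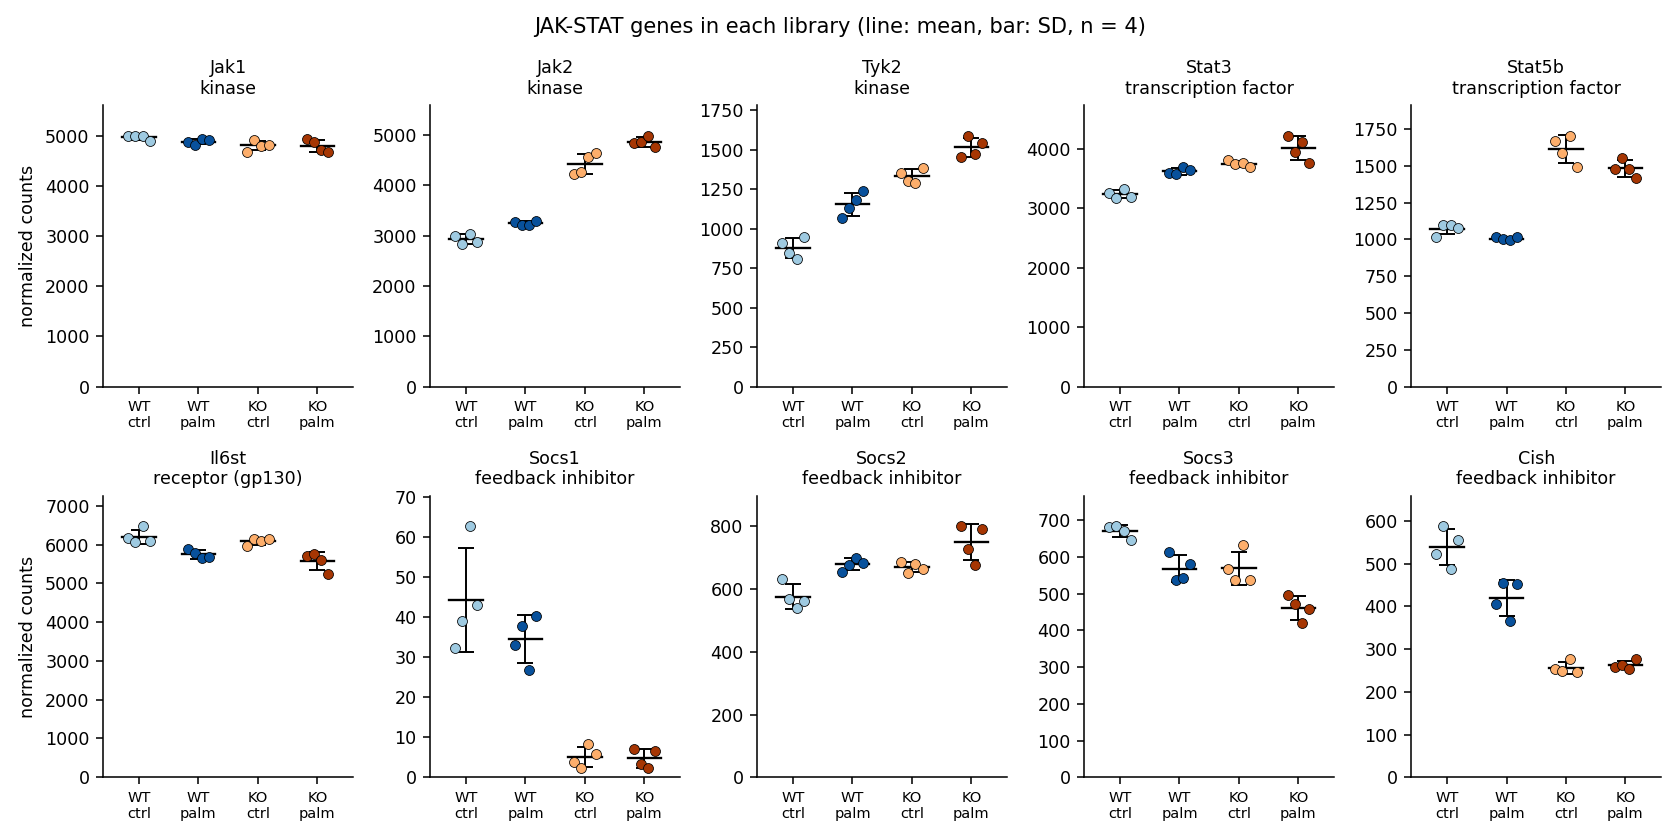
Normalized counts (y axes, each from 0) of the 10 genes in the 4 groups (x axes), where points are libraries, lines are means and bars are SD (n = 4). Jak2, Tyk2 and Stat5b stand higher in all KO than in all WT libraries, Cish and Socs1 stand lower, and Jak1 and Il6st differ little between the genotypes.

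The first comparison asked how KO and WT cells differ without added fatty acid. Genes for Jak2, Tyk2 and Stat5b were about equally raised in KO, Stat3 and Socs2 were slightly higher, and Cish, Socs1 and Socs3 were lower. Of the 10 genes 8 were called in limma (adjusted p under 0.05 over 15239 genes), 5 higher and 3 lower in KO. Socs1, among the lower genes, had to differ once it passed the filter on low values (at least 10 in at least 4 libraries), since it reached 10 in WT libraries alone. Among all genes tested 77.1% were called, 37.8% higher and 39.3% lower, so a share of 8 in 10 is near the background. The median log2 fold change of the 10 genes was 0.09, beside -0.01 over all genes tested. Without overlap between KO and WT libraries were 8 of the 10, beside 71.4% of all genes.

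Among the kinases, Jak2 (ENSMUSG00000024789.13, chromosome 19, 29251828 to 29313080, GRCm38), which serves the growth hormone, erythropoietin and leptin receptors among others, had 2983.5, 2835, 3034 and 2865 normalized counts in the 4 WT control libraries. In KO control it had 4229, 4270.1, 4552 and 4639.7. The lowest KO library thus lay well above the highest WT library, and the KO mean was 151% of the WT mean. The log2 fold change was 0.59 ± 0.03 (SE, limma adjusted p = 2.45e-16). Tyk2 (ENSMUSG00000032175.11, chromosome 9, 21104068 to 21131243), the kinase of interferon and interleukin-12 receptors, had 913, 849, 809 and 945 in WT control and 1351, 1305, 1293 and 1388 in KO control. Every KO library was again above every WT library, with a log2 fold change of 0.60 ± 0.05 (SE, limma adjusted p = 3.05e-12). Jak1 (ENSMUSG00000028530.14, chromosome 4, 101152367 to 101265282), the kinase that gp130 and interferon receptors share, had 4992, 5003, 4991 and 4889.9 in WT control and 4681, 4914, 4803 and 4825 in KO control. Its groups overlapped, and its log2 fold change was -0.05 with a 95% interval of -0.10 to 0.00 (limma adjusted p = 0.0872). After rescaling every library to the same total, which shifted the median of all genes to -0.09, Jak1 was called lower in KO at -0.13 (limma adjusted p = 1.9e-05). It was also called lower after quantile normalization at -0.16 (limma adjusted p = 7.38e-07) and with TMM scaling at -0.06 (0.0434).

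Both transcription factor genes were higher in KO control. Stat5b (ENSMUSG00000020919.11, chromosome 11, 100780731 to 100850724), a carrier of the growth hormone signal in liver, had 1020.1, 1096.5, 1098 and 1078 normalized counts in WT control. In KO control it had 1669.7, 1591, 1706 and 1489, so the groups were far apart and the KO mean was 150% of the WT mean. Its log2 fold change was 0.59 ± 0.04 (SE, limma adjusted p = 1.05e-13). Stat5b and its neighbour Stat5a are near copies, and 381 of 5535 stretches of 76 bases in the Stat5b transcripts (6.88%) also occur in Stat5a, so reads from these stretches are uncertain. Stat3 (ENSMUSG00000004040.16, chromosome 11, 100885098 to 100939540), which acts downstream of gp130, had 3252, 3176, 3325 and 3191 in WT control and 3813, 3738, 3755 and 3691 in KO control. The groups did not overlap, and the log2 fold change was 0.21 ± 0.03 (SE, limma adjusted p = 4.1e-07). Stat3 shares 72 exon bases with Stat5a on the opposite strand, and the sources used here do not say whether counting used strand.

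Il6st (ENSMUSG00000021756.12, chromosome 13, 112464070 to 112510086) encodes gp130, the signalling chain of the receptors for interleukin-6, interleukin-11, leukaemia inhibitory factor and oncostatin M. It had 6171, 6076, 6473 and 6086 normalized counts in WT control and 5957.5, 6139, 6096 and 6140.4 in KO control. The 4 KO libraries lay within or just below the WT range, with a log2 fold change of -0.03 and a 95% interval of -0.09 to 0.03 (limma adjusted p = 0.401). Il6st was called lower in KO after rescaling to the same total at -0.11 (limma adjusted p = 0.000975) and after quantile normalization at -0.15 (6.1e-06).

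The inhibitor genes did not move as a group. Cish (ENSMUSG00000032578.7, chromosome 9, 107296026 to 107302784), a STAT5 target whose protein competes with STAT5 for docking sites on the receptor, had 523, 588, 488 and 556 normalized counts in WT control and 254.5, 249, 276 and 246 in KO control. Every KO library was far below every WT library, and the KO mean was 47.6% of the WT mean. The log2 fold change was -1.07 ± 0.07 (SE, limma adjusted p = 4.68e-14). Socs1 (ENSMUSG00000038037.5, chromosome 16, 10782240 to 10785536), whose protein binds and inhibits JAK kinases directly, was a low gene with 32.4, 39.1, 62.7 and 43.1 normalized counts in WT control, from 181 reads in all. In KO control it had 3.93, 2.43, 8.37 and 5.7, from 18 reads. All KO libraries were below all WT libraries. The fitted log2 fold change was -2.95 ± 0.32 (SE, limma adjusted p = 2.83e-09), and it was -3.07 with a pseudocount of 0.5 in place of 1 and -2.29 with one of 5. Since Socs1 was under 10 in every KO library and entered the test through its WT values alone, its call adds nothing to the counts of called genes or of genes without overlap, in control and after palmitate alike.

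Socs3 (ENSMUSG00000053113.3, chromosome 11, 117966079 to 117970047), a STAT3 target whose protein binds gp130 and its JAKs, had 682, 684, 671 and 648 normalized counts in WT control and 567, 537, 634 and 538 in KO control. The highest KO library lay just below the lowest WT library, with a log2 fold change of -0.24 ± 0.06 (SE, limma adjusted p = 0.000501). Socs2 (ENSMUSG00000020027.18, chromosome 10, 95385362 to 95417180), a brake on growth hormone signalling, went the other way, with 633, 568, 540.5 and 564 in WT control and 687, 650.1, 679.5 and 665 in KO control. The groups did not overlap, and the log2 fold change was 0.22 ± 0.05 (SE, limma adjusted p = 0.00042). Stat5b was thus higher in KO while Cish was lower and Socs2 higher, and Stat3 was higher while Socs3 was lower.

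Promoters are shown for Cish and Socs3 because these are the 2 genes with a STAT-type motif among the 9 searched, all but Socs2. The window runs from 250 bases before to 50 after the RefSeq transcription start. For Cish and Socs3 this start lies inside the gene span given above, which comes from GENCODE. The sequences are RefSeq promoters of build GRCm38.p6, 5′ to 3′ on the strand of the gene, chr9:107296409-107296708 on the plus strand for Cish and chr11:117969317-117969616 on the minus strand for Socs3. Capitals mark matches to TTCNNNGAA, the core of STAT binding sites, which reads the same on both strands.
Cish: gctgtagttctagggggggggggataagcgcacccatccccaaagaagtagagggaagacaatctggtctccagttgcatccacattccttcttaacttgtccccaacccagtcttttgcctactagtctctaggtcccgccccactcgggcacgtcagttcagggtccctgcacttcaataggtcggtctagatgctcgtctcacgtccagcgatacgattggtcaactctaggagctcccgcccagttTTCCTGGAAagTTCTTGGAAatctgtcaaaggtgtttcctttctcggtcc
Socs3: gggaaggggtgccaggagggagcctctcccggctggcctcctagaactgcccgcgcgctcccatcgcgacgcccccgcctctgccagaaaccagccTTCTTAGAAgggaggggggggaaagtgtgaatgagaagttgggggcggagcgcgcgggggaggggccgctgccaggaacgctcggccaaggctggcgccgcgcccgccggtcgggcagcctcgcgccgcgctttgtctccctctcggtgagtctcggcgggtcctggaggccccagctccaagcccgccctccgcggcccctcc
Cish holds 2 matches, TTCCTGGAA and TTCTTGGAA, which start at bases 251 and 262 of the window, and Socs3 holds TTCTTAGAA from base 97. Among all 32851 RefSeq promoters, 2726 (8.3%) hold at least 1 match. The 9 genes had 10 promoters in all, of which these 2 held the motif. A motif with 1 more base in its spacer was in 6.95% of all promoters and in 0 of these 9 genes. The Cish matches lie in the 50 bases after the RefSeq start, not before it. A match describes these letters and shows no binding.

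The same comparison after palmitate used 8 other libraries. KO exceeded WT by nearly as much for Jak2 and Stat5b, by less for Tyk2, and by little for Stat3 and Socs2, and lay below WT for Cish, Socs1 and Socs3. Again 8 of 10 genes were called in limma, 5 higher and 3 lower, beside 77.1% of all genes tested (38.1% higher and 39% lower), so the share is near the background. Socs1, under 10 in every KO library, is again among the lower genes and among those without overlap. The median log2 fold change was 0.06 over the 10 genes and -0.01 over all genes. Of the 10 genes 7 did not overlap between KO and WT, beside 71.9% of all genes. After rescaling to the same total 3 of the 10 genes were called higher and 5 lower. The split of all calls moved the same way, from 5811 higher and 5944 lower to 4823 and 7034. The median log2 fold change of all genes was then -0.11, so the shift is not particular to the 10 genes. Values of KO and WT control are not part of these tests, but the spread that limma used was estimated over all 16 libraries.

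After palmitate Jak2 had 3264, 3204, 3205 and 3286 normalized counts in WT and 4827, 4855, 4983 and 4756 in KO, with a log2 fold change of 0.58 ± 0.03 (SE, limma adjusted p = 3.71e-16). Tyk2 had 1068, 1134, 1179.8 and 1237 in WT and 1455, 1591, 1476 and 1543 in KO, a log2 fold change of 0.39 ± 0.05 (SE, limma adjusted p = 1.73e-08). Both kinase genes again had every KO library above every WT library. Jak1 had 4866, 4813.5, 4937 and 4923.5 in WT and 4927, 4867, 4707 and 4683 in KO. These overlapped, and the 95% interval of its log2 fold change was -0.08 to 0.03 (limma adjusted p = 0.346), although rescaling to the same total gave -0.13 (2.11e-05) and quantile normalization -0.16 (4.06e-07). Stat5b had 1014, 1001, 995 and 1016 in WT and 1481, 1556, 1478 and 1418 in KO, without overlap, with a log2 fold change of 0.56 ± 0.04 (SE, limma adjusted p = 3.32e-13). Stat3 had 3590.4, 3571, 3701 and 3646 in WT and 4223, 3940.0, 4116 and 3759 in KO, where the lowest KO library was just above the highest WT library. Its log2 fold change of 0.14 ± 0.03 (SE, limma adjusted p = 0.000125) was not called after rescaling to the same total, at 0.04 (0.155), or after quantile normalization, at 0.02 (0.611). Il6st had 5890.3, 5791, 5649 and 5674 in WT and 5711, 5754.5, 5602 and 5250.5 in KO, which overlapped, with a 95% interval of -0.10 to 0.02 (limma adjusted p = 0.17). It was called lower in KO at -0.14 after rescaling to the same total (3.05e-05) and at -0.19 after quantile normalization (9.65e-08).

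Cish after palmitate had 404.5, 454.5, 365 and 452 normalized counts in WT and 258, 263, 253.5 and 276 in KO. The KO libraries were all below the WT libraries, but by less than in control, with a mean 62.7% of that in WT and a log2 fold change of -0.67 ± 0.07 (SE, limma adjusted p = 1.14e-09). Socs1 had 33.0, 37.7, 26.7 and 40.4 in WT, from 165 reads, and 7.12, 3.26, 2.22 and 6.5 in KO, from 19 reads. The groups were apart, with a fitted log2 fold change of -2.70 ± 0.32 (SE, limma adjusted p = 1.5e-08) that was -2.03 with a pseudocount of 5. Socs3 had 615, 539, 542 and 580.0 in WT and 497.5, 472, 419 and 458 in KO, without overlap, a log2 fold change of -0.30 ± 0.06 (SE, limma adjusted p = 3.64e-05). Socs2 had 656, 678.5, 701 and 684 in WT and 801, 728, 678 and 791 in KO. These groups overlapped, and the call at 0.14 ± 0.05 (SE, limma adjusted p = 0.0193) was lost after rescaling to the same total (0.498). It was also lost without WT palmitate library 1 (limma adjusted p = 0.0576), KO palmitate library 1 (0.0818) or KO palmitate library 4 (0.0761).

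**Figure D2:**
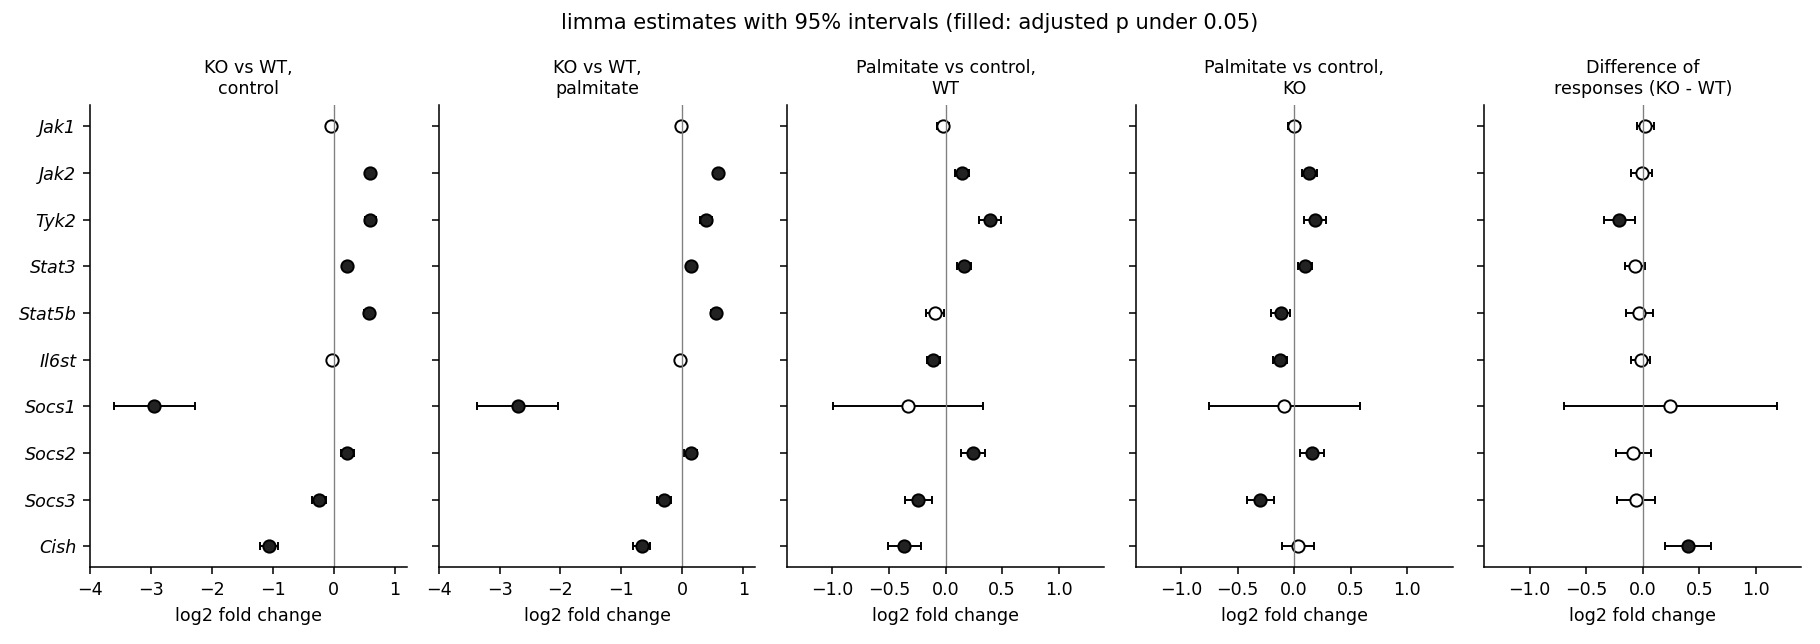
Log2 fold changes from limma (x axes) of the 10 genes in the 5 comparisons, with 95% intervals as bars and filled points for an adjusted p under 0.05, where the panels of KO against WT have a wider scale than the others. Jak2, Tyk2 and Stat5b lie at 0.59 to 0.60 in KO against WT in control, and Cish lies at -0.36 in the WT response to palmitate and at 0.04 in the KO response.

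WT cells given palmitate were then compared with WT control cells. Tyk2, Jak2, Stat3 and Socs2 rose and Cish, Socs3 and Il6st fell. That is 7 of 10 genes called in limma, 4 higher and 3 lower, beside 37.6% of all genes tested (17.7% higher and 19.9% lower). The median log2 fold change of the 10 genes was -0.06, beside 0.01 over all genes. Without overlap were 8 of the 10, beside 37.1% of all genes. The split of all calls, 2702 higher and 3032 lower, became 3656 and 2265 after rescaling to the same total. The comparisons of palmitate with control use the same libraries as those of KO with WT, so the responses and the genotype differences are not independent. Mesenchymal markers summed to 168983 to 175093 in WT after palmitate, below the WT control libraries, and hepatocyte markers to 3326 to 3478 and leukocyte markers to 825 to 882, above them, and their part in the response was not tested.

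Tyk2 moved most among the kinases. Its WT libraries had 809 to 945 normalized counts in control and 1068 to 1237 after palmitate, and the log2 fold change was 0.39 ± 0.05 (SE, limma adjusted p = 1.81e-07). Jak2 had 2835 to 3034 in control and 3204 to 3286 after palmitate, with 0.15 ± 0.03 on the log2 scale (SE, limma adjusted p = 0.000412). Stat3 had 3176 to 3325 in control and 3571 to 3701 after palmitate, with 0.16 ± 0.03 (SE, limma adjusted p = 9.09e-05). For all 3 genes the palmitate libraries were above the control libraries without overlap. Jak1 was at -0.02 with a 95% interval of -0.08 to 0.03 (limma adjusted p = 0.492), and its sign changed with the scaling. Stat5b was at -0.09, with an interval of -0.17 to -0.01 (limma adjusted p = 0.072). All 4 of its palmitate libraries, 995 to 1016, were just below the control libraries, 1020.1 to 1098, and it was called lower after quantile normalization (0.0445), in a fit of the 8 WT libraries (0.049), and without WT control library 1 (0.0344) or KO control library 4 (0.0479).

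The inhibitors went in opposite directions in WT. Cish fell from 539 ± 42.8 to 419 ± 42.6 normalized counts (SD, n = 4 each), which is -0.36 ± 0.07 on the log2 scale (SE, limma adjusted p = 0.000132), and palmitate libraries were all below control libraries. Socs3 fell from 671 ± 16.7 to 569 ± 36, or -0.24 ± 0.06 on the log2 scale (limma adjusted p = 0.0016). Socs2 rose from 576 ± 39.5 to 679.8 ± 18.6, or 0.24 ± 0.05 (limma adjusted p = 0.000546). Neither Socs3 nor Socs2 had overlapping groups. Socs1, with so few reads, had a log2 fold change of -0.33 and a 95% interval of -0.99 to 0.33 (limma adjusted p = 0.465), so a change of this size was not detectable at this depth. Il6st fell from 6201 ± 186 to 5751 ± 112, or -0.11 ± 0.03 (limma adjusted p = 0.00405). That call was lost after rescaling to the same total, at -0.07 (0.0575), and after quantile normalization, at -0.03 (0.39).

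In KO cells palmitate raised Jak2, Tyk2, Stat3 and Socs2 and lowered Socs3, Il6st and Stat5b. Again 7 of 10 genes were called in limma, 4 higher and 3 lower, beside 39.1% of all genes tested (18.7% higher and 20.4% lower), and the median log2 fold change was 0.02, beside 0.00 over all genes. Of the 10 genes 4 did not overlap, Jak2, Tyk2, Il6st and Socs3, beside 33.8% of all genes. Hepatocyte markers summed to 58943 to 63246 and mesenchymal markers to 28109 to 29210.4 in KO after palmitate, both outside the KO control ranges. Leukocyte markers summed to 890.2 to 1001 there, above the 744 to 803 of KO control. Their part in the response was not tested. Tyk2 had 1293 to 1388 in KO control and 1455 to 1591 normalized counts in KO palmitate (0.18 ± 0.05 on the log2 scale, SE, limma adjusted p = 0.00257). Jak2 had 4229 to 4639.7 in KO control and 4756 to 4983 in KO palmitate (0.14 ± 0.03, limma adjusted p = 0.000847). In these kinases the highest levels of the whole series were thus those of KO cells with palmitate. Jak1 was not called, with a 95% interval of -0.06 to 0.05 (limma adjusted p = 0.942).

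Socs3 fell in KO from 569 ± 45.6 to 462 ± 32.6 (SD, n = 4 each), or -0.30 ± 0.06 on the log2 scale (SE, limma adjusted p = 0.000149), and its lowest levels of the series were in this group. Il6st fell from 6083 ± 86.3 to 5579.6 ± 228, or -0.13 ± 0.03 (limma adjusted p = 0.00105). Cish hardly differed, at 256 ± 13.7 and 263 ± 9.6 in overlapping groups, with a log2 fold change of 0.04 and a 95% interval of -0.11 to 0.18 (limma adjusted p = 0.732). Socs1 had an interval of -0.75 to 0.58 around -0.09 (limma adjusted p = 0.863).

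The remaining 3 called KO responses were small, overlapped between groups and were lost when single libraries were left out. Stat3 was at 0.10 ± 0.03 on the log2 scale (SE, limma adjusted p = 0.014), and its call was lost without KO palmitate library 1 (0.0612) or 3 (0.0548). Socs2 was at 0.16 ± 0.05 (limma adjusted p = 0.0178), lost without KO control library 2 (0.055) or KO palmitate library 1 (0.068) or 4 (0.0718). Stat5b was at -0.12 ± 0.04 (limma adjusted p = 0.017), lost after rescaling to the same total (0.0544) and without KO control library 1 (0.0647) or 3 (0.0858) or KO palmitate library 4 (0.0698).

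Whether the response to palmitate differs between the genotypes was tested as the KO response minus the WT response. Cish differed by 0.40 ± 0.10 on the log2 scale (SE, limma adjusted p = 0.00862). It fell in WT and was not called in KO. Tyk2 differed by -0.21 ± 0.07 (limma adjusted p = 0.0436), with a smaller rise in KO than in WT. These are 2 of the 10 genes, 1 higher and 1 lower, beside 9.9% of all genes tested (4.19% higher and 5.71% lower). The split of all calls, 638 higher and 870 lower, became 489 and 1141 after rescaling to the same total. The call of Cish was kept in every alternative that gave a value for it, with limma adjusted p from 0.00493 to 0.0258 when any 1 library was left out. The call of Tyk2 was lost when any of 11 of the 16 libraries was left out (0.0145 to 0.112 over all 16). It was also lost with no filter on low values (0.0835), with TMM scaling (0.061) and with plain empirical Bayes (0.117). For the other 8 genes the 95% intervals were widest for Socs1 (-0.70 to 1.18) and spanned -0.10 to 0.08 for Jak2, -0.16 to 0.02 for Stat3, -0.23 to 0.11 for Socs3 and -0.24 to 0.07 for Socs2.

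Ratios within a library show the balance of these genes without dependence on the scaling between libraries. Per kilobase, Jak2 stood to Jak1 at 0.575 ± 0.0172 in WT control, 0.647 ± 0.00938 in WT palmitate, 0.898 ± 0.0413 in KO control and 0.988 ± 0.033 in KO palmitate (SD, n = 4 each). Tyk2 to Jak1 was 0.18 ± 0.014, 0.24 ± 0.0132, 0.282 ± 0.0122 and 0.321 ± 0.0159 in the same order. In both ratios the 4 groups followed each other without overlap. The size of a ratio depends on the transcript taken as the length, while its order over the groups does not. With the length of all exons, Jak2 was at 879 and Jak1 at 665 per kilobase in KO control. Cish to Stat5b was 0.919 ± 0.0728 and 0.762 ± 0.0744 in WT and 0.291 ± 0.0104 and 0.324 ± 0.0214 in KO, so that WT libraries lay between 0.672 and 0.98 and KO libraries between 0.279 and 0.356. Socs3 to Stat3 was highest in WT control at 0.367 ± 0.0112 and lowest in KO palmitate at 0.204 ± 0.0161, with WT palmitate (0.278 ± 0.0193) and KO control (0.268 ± 0.0205) between them and overlapping. These ratios of RNA levels are a description with no test, and say nothing of the proteins' activity.

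**Figure D3:**
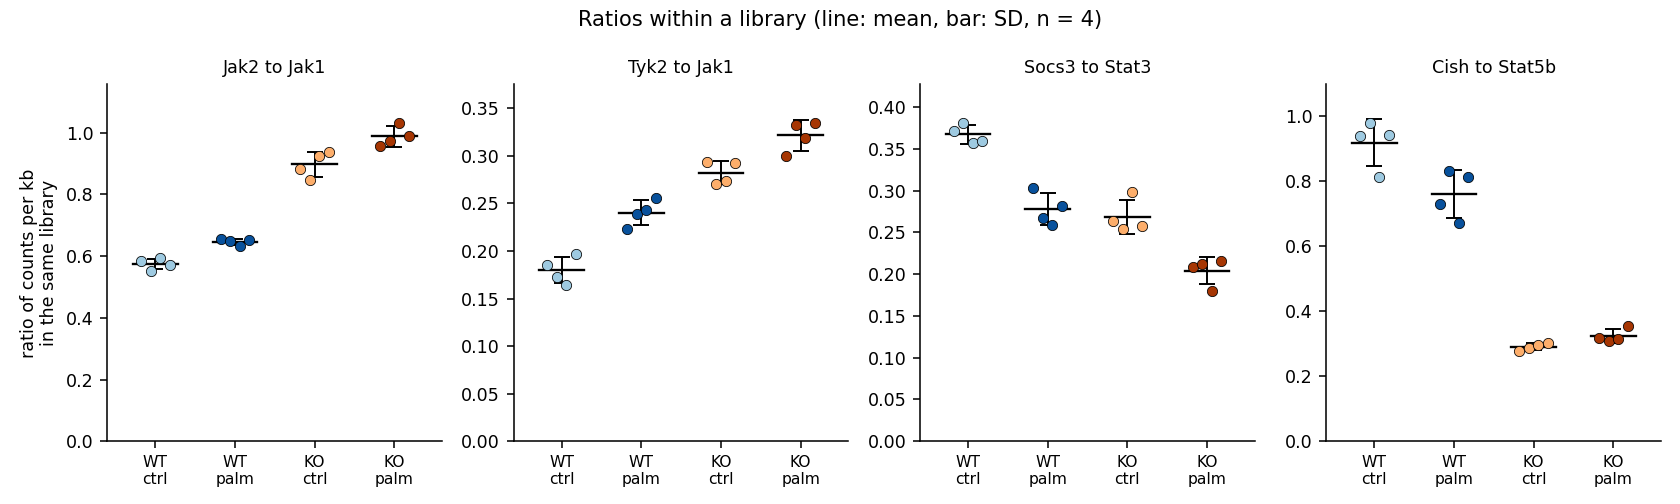
Ratio of normalized counts per kilobase of 2 genes in the same library (y axes, from 0) in the 4 groups (x axes), where points are libraries, lines are means and bars are SD (n = 4). Jak2 and Tyk2 relative to Jak1 climb from WT control to KO palmitate, and Cish relative to Stat5b falls from 0.919 in WT control to 0.291 in KO control.

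The rest of the pathway was counted on 86 further genes in lists by role, of which 69 passed the filter. Of these, 29 were called higher and 28 lower in KO against WT in control (82.6%), and 30 and 29 after palmitate (85.5%), beside 77.1% of all genes in each, so both shares are near the background. These counts include 4 and 2 genes that were called lower with every KO library of the comparison under 10. Such a gene entered the test through its higher group and its call is no support. Other JAKs and STATs were 2 higher and 2 lower of 5 tested, with Stat6, which carries the interleukin-4 signal, at 0.61 ± 0.03 and Stat5a at 0.40 ± 0.05 (SE). The background for the counts by role in KO control is 37.8% of all genes higher and 39.3% lower. Receptors were 9 higher and 7 lower of 20, with Lepr under 10 in KO, led by Il15ra at 3.79 ± 0.22, the interleukin-13 receptor chain Il13ra1 at -3.63 ± 0.23 and the interleukin-22 receptor chain Il22ra1 at 2.34 ± 0.07. Il15ra had only 30 reads over the 4 WT control libraries, and Il13ra1 only 40 over the 4 KO control libraries. Ligands were 1 higher and 8 lower of 10, but 3 of the lower ones, Il6, Il11 and Tslp, were under 10 in every KO control library. Ctf1, a gp130 ligand gene, was at -1.90 ± 0.20, and the single higher gene was Clcf1 at 1.47 ± 0.06, another gp130 ligand. Tslp, an epithelial cytokine gene, had 47.4 to 75.1 normalized counts in WT control and 2.39 to 3.8 in KO control. Il6 had 24.8, 17.3, 18.8 and 19.4 normalized counts in WT control and 3 reads over all 4 KO control libraries. It passed the filter through WT libraries alone, so these values are a description and no support for a difference.

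Inhibitors outside the 10 genes were 5 higher and 5 lower of 13 in KO control (76.9%, beside 77.1% of all genes). Socs6 was higher at 1.32 ± 0.03, and the phosphatase gene Ptpn6 and Socs7 were lower at -0.98 ± 0.06 and -0.84 ± 0.04 (SE). Target genes were 12 higher and 6 lower of 21 (85.7% called, beside the same 77.1%), with a median of 0.47 on the log2 scale, beside -0.01 over all genes. The acute phase fibrinogen genes Fga and Fgb stood at 4.43 ± 0.14 and 3.86 ± 0.05, and Igf1, the growth hormone target, at 1.80 ± 0.08. Fga, Fgb and Igf1 were the called targets with the largest absolute change. Targets lower in KO control without overlap included Timp1, at 1012 to 1193 normalized counts in WT control and 385 to 415 in KO control. Pim1 (295 to 376 and 152 to 179) and Myc (3276 to 3793 and 2352 to 2558) were lower too. Lcn2 overlapped, at 805 to 985 and 782 to 912. The adjusted p of the further pathway genes given here with a fold change in KO control was at most 2.95e-08 in limma. Fibrinogens are hepatocyte products, and the hepatocyte markers moved the same way. Their part in this result was not tested. After palmitate the same 13 inhibitors were 3 higher and 6 lower, and the same 21 targets 13 higher and 7 lower, beside 38.1% and 39% of all genes, with Saa3, an acute phase gene, at 1.87 ± 0.15.

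After palmitate 21 of the 69 genes were called higher and 12 lower in WT (47.8%, beside 37.6% of all genes). In KO 17 were called higher and 11 lower (40.6%, beside 39.1%), which is near the background. The ligand gene Csf2, which encodes GM-CSF, rose most, from 30.2 ± 3.52 to 133 ± 19.8 normalized counts in WT (SD, n = 4 each, 2.10 ± 0.15 on the log2 scale, SE, limma adjusted p = 9.13e-12) and from 27.9 ± 2.12 to 169 ± 34.7 in KO (2.54 ± 0.15, limma adjusted p = 1.03e-13). Lif, a gp130 ligand gene, rose by 0.34 ± 0.04 in WT. Its KO libraries also stood higher after palmitate without overlap, at 632 to 672 normalized counts beside 543 to 573 in control. Il15 rose by 0.54 ± 0.19 in WT and 0.51 ± 0.19 in KO, but both calls were lost when any of several single libraries was left out (limma adjusted p up to 0.105 and 0.12). Both were also lost with no filter (limma adjusted p = 0.0501 and 0.0645) and with quantile normalization (0.0705 and 0.058). The KO call was lost in edgeR (adjusted p = 0.0625), in DESeq2 (0.0986) and in a limma fit of the 8 KO libraries (0.0863). Tslp was called in KO at 0.89 ± 0.33, with 2.39 to 3.8 normalized counts in control and 2.22 to 15.2 after palmitate, and the call was lost without KO palmitate library 2 (0.183) among others. Stat2 rose by 0.29 ± 0.04 in WT and 0.16 ± 0.04 in KO, and Stat6 by 0.15 ± 0.03 and 0.09 ± 0.03, the last lost without KO control library 2 (0.0573) or KO palmitate library 3 (0.0616). Receptor genes that rose in WT were led by Il15ra (1.02 ± 0.22), Ifnlr1 (0.40 ± 0.10) and Il6ra (0.30 ± 0.09). Il15ra was low in WT and its groups overlapped, with 5.12 to 10.4 normalized counts in control and 9.9 to 24.1 after palmitate. In KO, Il11ra1 rose by 0.49 ± 0.08, and Il10rb and Lifr fell, at -0.29 ± 0.04 and -0.22 ± 0.04.

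Of the 21 target genes 9 fell and 7 rose after palmitate in WT, beside 19.9% of all genes lower and 17.7% higher. In KO 6 fell and 5 rose, beside 20.4% and 18.7%. The cyclin gene Ccnd1 fell in both, at -0.84 ± 0.06 and -0.79 ± 0.06, and so did Cebpd, a transcription factor gene induced in the acute phase, at -0.60 ± 0.11 and -0.70 ± 0.11. Saa3 fell in WT, with 51.7 to 64.8 normalized counts in control and 17.4 to 23.1 after palmitate. In KO its groups overlapped, at 71.7 to 87.3 and 68.5 to 97.7. Fga was at 0.45 ± 0.14 in KO. Among the inhibitors, Socs6, Socs7 and the adaptor gene Sh2b3 rose in KO by 0.28 ± 0.03, 0.18 ± 0.04 and 0.12 ± 0.04. The WT libraries of Socs6 also stood higher after palmitate without overlap, at 2350 to 2414 normalized counts beside 2160 to 2227 in control. Those of Socs7 did so too, at 1856 to 1923 beside 1672 to 1815. In WT, Ptpn6 rose by 0.24 ± 0.06, Sh2b3 by 0.12 ± 0.04 and Ptprc by 0.61 ± 0.20, the last lost without WT control library 2 (0.0605) or WT palmitate library 4 (0.0594). Of the 69 genes 13 were called in the difference of the responses, 6 higher and 7 lower, beside 9.9% of all genes (4.19% higher and 5.71% lower). Saa3 (1.43 ± 0.21), Il11ra1 (0.42 ± 0.12), Fgb (0.40 ± 0.07), the growth hormone receptor gene Ghr (0.29 ± 0.07) and Socs6 (0.17 ± 0.04) had the more positive response in KO, and Igf1 (-0.52 ± 0.11) and Il10rb (-0.25 ± 0.05) the more negative one. The call of Il11ra1 was lost without KO palmitate library 3 (0.0552).

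**Figure D4:**
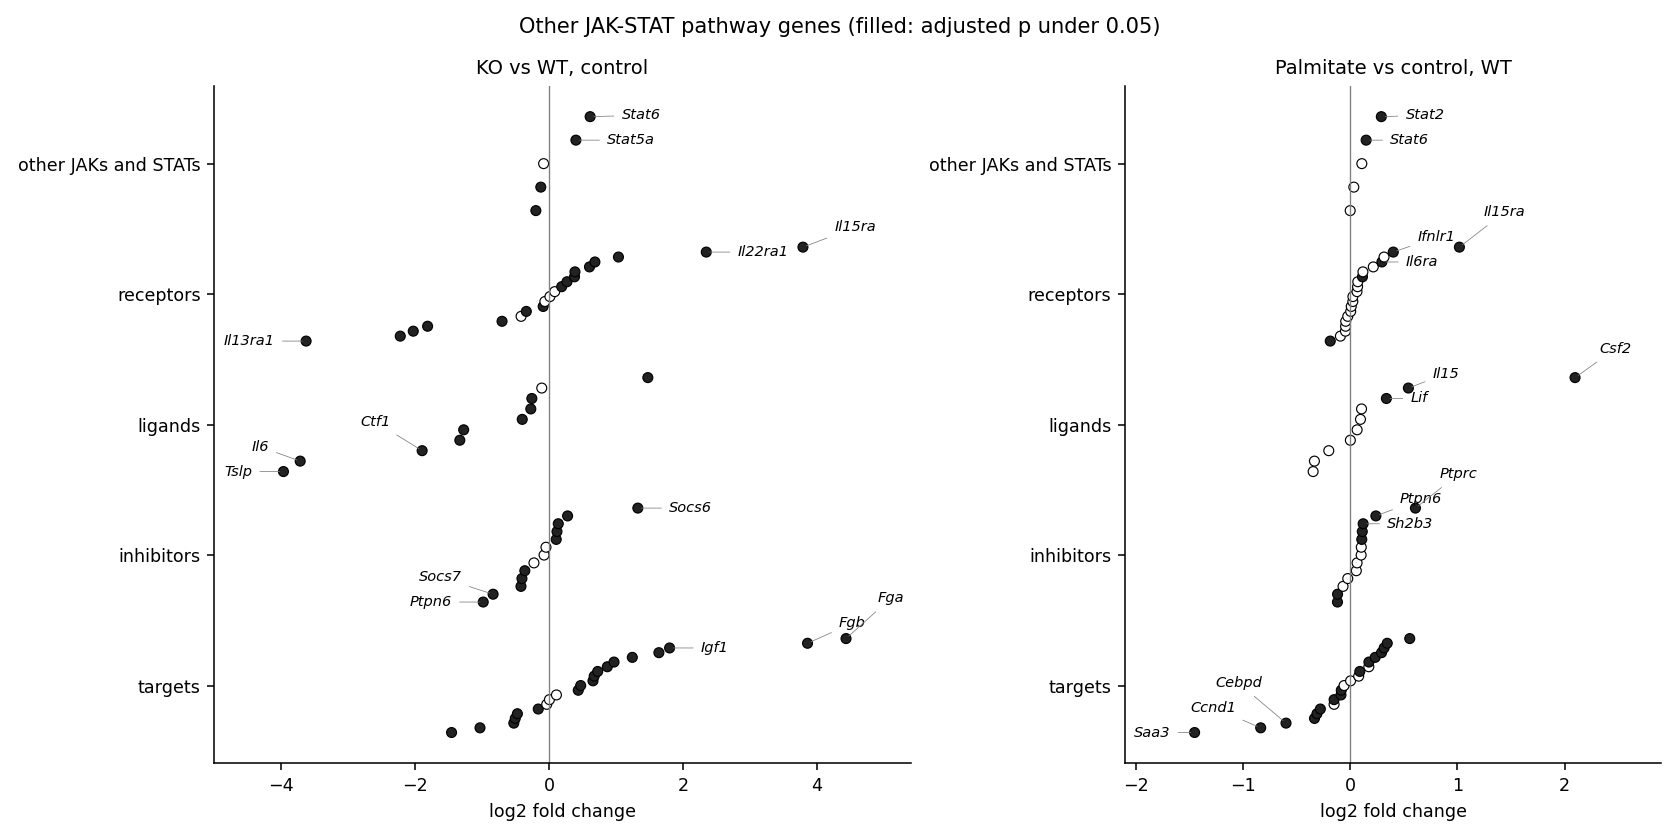
Log2 fold changes from limma (x axes, with different scales) of the 69 further pathway genes by role, for KO against WT in control and for palmitate against control in WT, with filled points for an adjusted p under 0.05. In KO control 8 of 10 ligand genes were called lower, beside 39.3% of all genes, and 3 of the 8 were under 10 in every KO control library. Csf2 lies farthest right after palmitate at 2.10.

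The remaining 17 of the 86 genes did not pass the filter. Prlr, Csf3r, Il10ra and Osm had 0 reads in all 16 libraries. The prolactin and G-CSF receptor genes, the interleukin-10 receptor chain Il10ra and the oncostatin M gene were thus not detected here. Stat4, Cntfr, Il10, Il22 and Epo had 1 read each. The acute phase genes Saa1, Saa2, Fgg and Hamp had 4, 72, 60 and 23 reads, and Igfals, a growth hormone target, had 55.

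The genes whose profile over the 16 libraries was most like that of an inhibitor gene or of Il6st were found among 11300 genes by the root mean square difference of centred log2 values, where a smaller value means more alike. For Cish they were Dnajc25 (0.109), Utp11 (0.111) and Snrpg (0.116). Dnajc25 had means of 324 and 259 normalized counts in WT control and palmitate and 149.7 and 163 in KO. For Socs3 they were Kif20b (0.0604), Ipo9 (0.0635) and Cstf2 (0.0636), and for Socs2 Ddrgk1 (0.0636), Numb (0.064) and Pgd (0.0695). Il6st was matched most closely, by Ahctf1 (0.0352), Aebp2 (0.0357) and Nr2c2 (0.0371). Socs1, the lowest gene, was matched least closely, by Jam3 (0.351), Kdelr3 (0.372) and Stk39 (0.379). The difference is not scaled by how much a gene varies. Il6st varied little and Socs1 had few reads, so their values do not compare how alike the matched genes are.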

How the data were processed

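RNA was measured in 16 libraries of mouse hepatic progenitor cells in 4 groups of 4. The deposited values are a signal on a linear scale, gene counts normalized by the authors, for 55421 genes. The submitters' processing notes name STAR, RSEM, DESeq2 and limma without versions or roles, and the genome build is not given in the sources used here. Every value above 0 was a whole multiple of 1 step per library within 0.1 read, so reads were recovered by division, 21553952 to 35693442 per library. Coordinates are GRCm38 positions from GENCODE mouse release 21, in which 54673 identifiers were found with the same version and 55240 without regard to version. Per the labels' protocols, the library text mentions low quality of the starting RNA.

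The main test was limma 3.58.1 (R 4.3.3) on log2(value + 1), which understates the change of low genes, over the 15239 genes with at least 10 in at least 4 libraries. It fitted 4 group means to all 16 libraries, with robust empirical Bayes and a trend of variance on level, with two-sided p-values adjusted by Benjamini-Hochberg within each of 5 comparisons, and a call at an adjusted p under 0.05. All 10 genes passed the filter, Socs1 through its WT libraries alone. The code was tested on simulated data. Alternatives were pseudocounts of 0.5 and 5, no filter and a filter at 50, rescaling to the same total, quantile normalization, TMM factors, edgeR 4.0.16 and DESeq2 1.42.0 on the recovered reads, plain empirical Bayes, a fit of the 8 libraries compared, a replicate block, and leaving out each library. The 10 genes and the lists were chosen with earlier results of these data known. Named pathway genes were up to 3 called genes per role and comparison with the largest absolute change, and Clcf1, Il11, Lepr, Il6 reads and genes below the filter were named after their values were seen. The same holds for Bcl3, Bcl2l1, Bcl6, Timp1, Pim1, Myc, Lcn2, the KO values of Lif and the WT values of Socs6 and Socs7. Some genes of the lists are not reported here by name. Profiles were compared over genes with a mean of at least 50. Promoters are RefSeq sequences of build GRCm38.p6.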

Additional observations from a re-analysis of the deposited data

Results flagged for a closer look

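In 12 of 155 groups of 4 libraries, 1 library lay apart from the other 3 by Dixon's criterion at the 95% level, and chance flags about 1 in 20 groups. Among the 10 genes this was the lowest Jak1 library of WT control, at 4890 normalized counts. In WT control it was also the lowest Ccnd1 library (15034), the highest Csf2 library (35.4), the highest Ctf1 library (63.6) and the highest Il6ra library (119). In KO control it was the lowest Cebpd (167), Csf2 (24.7) and Fgb (2890) library and the highest Ptprc library (47.8). After palmitate it was the highest Il10rb library of WT (1038) and the highest Il11ra1 (242) and Stat5a (714) libraries of KO.

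Among the 10 genes and the pathway genes named by the size of their change, the palmitate response differed between KO and WT, by limma's test of the difference itself, for Cish (0.40 on the log2 scale, KO minus WT), Tyk2 (-0.21), Fgb (0.40), Ghr (0.29), Igf1 (-0.52), Il10rb (-0.25), Il11ra1 (0.42), Saa3 (1.43) and Socs6 (0.17). Leaving out single libraries lost the call of Tyk2, and leaving out KO palmitate library 3 that of Il11ra1. Of all 69 pathway genes 6 were called higher and 7 lower. The lower ones outside this list include Bcl3 (-0.33), Bcl2l1 (-0.26) and Bcl6 (-0.23).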

How the results depend on the processing

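Pseudocounts of 0.5 and 5, a filter at 50 (which gave no value for Socs1), DESeq2 and the replicate block changed no call of the 10 genes, and DESeq2 gave no adjusted p for 1 result. The replicate numbers did not pair the samples: deviations of same-numbered libraries correlated between -0.111 and 0.0605 over 24 pairs, and all 50 results kept their call with the block. After rescaling to the same total, 5 genes rather than 3 were called lower in KO control, and 3 rather than 5 higher and 5 rather than 3 lower in KO after palmitate. With the same rescaling, 6798 rather than 5985 of all genes were lower in KO control, and 7034 rather than 5944 after palmitate. The number of all genes called higher went from 5759 to 4993 and from 5811 to 4823. Quantile normalization also gave 5 of the 10 genes lower in both, beside 6093 and 6074 of all genes. In the difference of responses 0 rather than 1 gene was lower with no filter, with TMM and with plain empirical Bayes. Leaving out 1 library gave 2 to 4 genes called higher by palmitate in KO and 0 to 1 called lower in the difference. Over all genes these fits gave 2484 to 2941 and 688 to 1034. The cause of these changes was not tested.

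Under the alternatives run, signs turned only for uncalled values, given on the log2 scale. Jak1 after palmitate in WT (main value -0.02) went to 0.018 with the same total and 0.048 with quantile normalization. Jak1 in KO (main value -0.0031) went to 0.019, 0.043, 0.0054 with TMM and 0.0051 with edgeR. With quantile normalization the difference of responses went to -0.0059 for Jak1 and 0.0033 for Jak2, and the KO response of Cish to -0.0077. Leaving out 1 library, the KO response ranged from -0.016 to 0.0083 for Jak1 and from -0.33 to 0.16 for Socs1. The difference of responses ranged from -0.031 to 0.013 for Jak2, from -0.038 to 0.012 for Il6st and from -0.0016 to 0.49 for Socs1. Of the values under the alternatives of pathway genes named by the size of their change, 1724 kept and 31 lost their call, with no change of sign. Depth limits Socs1 most, with 18 to 181 reads per group.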
